A study of Osmia excavata with 6 samples.

Results

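Small heat shock proteins are compact chaperones that hold damaged proteins in a soluble state until larger, ATP-driven chaperones refold them. They share an alpha-crystallin (HSP20) domain, and insects carry families of them that respond to heat and other stress and that also act in muscle. In Drosophila, lethal(2)essential for life, l(2)efl, is such a protein; HSPB1 is the vertebrate small heat shock protein also known as Hsp27. The 4 genes described here are rows of a gene expression table of the solitary mason bee Osmia excavata, which lists 37061 assembled genes. They were picked by identifier: DN298 (TRINITY_DN298_c0_g1), DN27543 (TRINITY_DN27543_c0_g1) and DN120 (TRINITY_DN120_c0_g1), which match l(2)efl in Swiss-Prot, and DN340 (TRINITY_DN340_c0_g1), which matches HSPB1. The choice was made knowing that paralogs differed in opposite directions between the groups, so their group differences are given as a description, with no test.

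RNA came from 3 control samples and 3 samples immersed in water, a treatment used to promote emergence from the cocoon (decocooning). The labels give no agent other than water, no strain, the species name where a tissue would stand, and no age, sex, pooling of animals or interval between wetting and sampling. They do not say that the samples are separate animals, so errors and p-values measure only the spread between these samples. Their titles call the immersed samples decocooning samples, so effects of wetting and of leaving the cocoon cannot be told apart.

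Estimated counts summed to between 16765886 and 19953734 per library. Genes whose description names a bee, wasp, ant or sawfly (Hymenoptera) held between 92.6% and 94.5% of them. Genes matching Caenorhabditis made up 3460 CPM (their counts relative to the library total) in control 1 and 14100 to 15000 after immersion, against 0.908 and 0.208 in controls 2 and 3. Mammalian matches had 19700 CPM in control 1, 533 and 315 in controls 2 and 3, and 6850 to 11100 after immersion. Control 1 thus resembled the immersion libraries in foreign transcripts, and differences against control 1 alone stand beside the pooled ones below.

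All 4 genes matched bee proteins, DN298, DN27543 and DN120 the leafcutter bee Megachile rotundata and DN340 the bumblebee Bombus terrestris. The table's protein domain column gave each of them an HSP20 domain. They were 4 of 11 Hymenoptera genes with that domain. The assembled genes differed widely in form. DN298 and DN27543 were single transcripts of 998 and 1145 bases. DN120 was a cluster of 60 transcripts with a listed length of 12657 bases, and DN340 one of 8 transcripts with 7614 bases. These lengths are large for small heat shock proteins, and whether the clusters also hold other sequence was not tested, which bears on every count, TPM value and share given for DN120 and DN340. The other 7 genes of the family had 847 to 1475 bases. All 4 passed the filter on low counts, as did the other 7 genes of the family.

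The opposite directions showed in every library. DN298 and DN27543 were higher in each immersion library than in any control, and DN120 and DN340 were lower. Levels are given in normalised CPM, the estimated counts per library size after TMM scaling, which serve to compare a gene between libraries but not genes with each other. A log2 difference is the immersed level minus the control level in edgeR's quasi-likelihood fit, with its standard error (SE). In bulk RNA, fewer cells of a type and less RNA per cell cannot be told apart.

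DN298, the family's most abundant transcript per length, stood at 481, 525.5 and 522 normalised CPM in control libraries 1, 2 and 3 and at 723, 809 and 753 in immersion libraries 1, 2 and 3. The groups did not overlap, and both were tight. The means were 509.5 ± 24.8 and 761 ± 43.5 (SD, n = 3 each), a log2 difference of 0.58 ± 0.15.

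DN27543, the scarcest of the 4, stood at 57.6, 60.8 and 38.2 normalised CPM in control libraries 1, 2 and 3. After immersion it had 87.0, 118 and 92.2 normalised CPM. Control 3 was the low library and immersion library 2 the high one, and the groups did not overlap. The log2 difference was 0.92 ± 0.22, from 52.2 ± 12.2 to 99.0 ± 16.5 normalised CPM (SD, n = 3 each).

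DN120 drew the most counts of the family. It had 4568, 4338 and 4808 normalised CPM in the controls and 2532, 1683 and 2662 after immersion. Immersion library 2 stood below the other two, and no immersion library reached a control. From 4571 ± 235 to 2292 ± 532 normalised CPM (SD, n = 3 each), the log2 difference was -1.00 ± 0.23.

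DN340, the HSPB1 match, had 1155, 1388 and 1570 normalised CPM in controls 1, 2 and 3. It had 823, 760.0 and 783 normalised CPM in the immersion libraries. Control 1 was the control nearest to the immersion libraries, which lay close together. The means were 1371 ± 208 and 789 ± 32.2 (SD, n = 3 each), with a log2 difference of -0.80 ± 0.18.

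**Figure D1:**
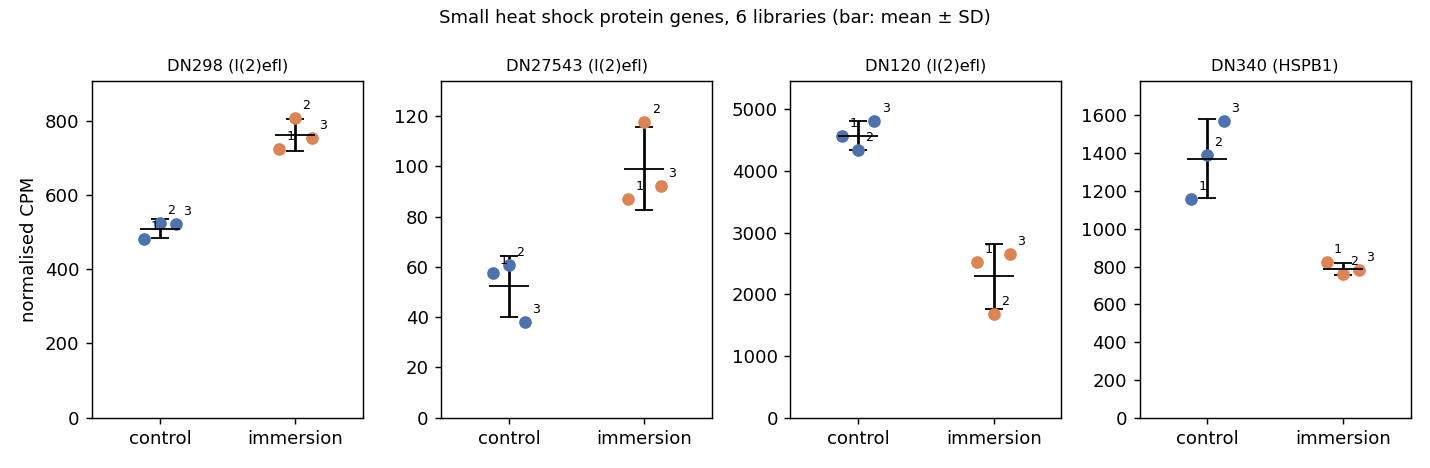
Normalised CPM of the 4 genes in each library; points are libraries, numbered by replicate, and bars are mean ± SD of 3. DN298 and DN27543 lie higher in all 3 immersion libraries (DN298 723 to 809 against 481 to 525.5), DN120 and DN340 lower (DN120 1683 to 2662 against 4338 to 4808).

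Groups that do not overlap were common in these libraries. Of the 9250 fitted Hymenoptera genes, 24.0% were higher in every immersion library than in every control and 22.2% were lower. The counts of 2 higher and 2 lower among the 4 genes were part of the choice, and nothing is read from them. Against control 1 alone, fitted with a term for the 4 libraries with more than traces of worm counts, the log2 differences were 0.66 for DN298, 0.78 for DN27543, -0.99 for DN120 and -0.55 for DN340. That fit shares all its libraries with the pooled one.

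The deposited TPM values, which are scaled for length, allow levels to be ordered between genes. In the controls DN298 stood at 1004, 1053 and 993 TPM, above DN340 at 574, 736 and 790.1. DN120 followed at 455, 487 and 511 TPM. These 3 genes did not overlap with each other in the controls. DN27543, at 95.03, 99.33 and 59.53 TPM, overlapped with several genes of the family. DN298 ranked between 103 and 125 among the 11315 Hymenoptera genes in the controls, and DN27543 between 1205 and 1891.

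After immersion DN298 had 1576, 1586 and 1568 TPM and remained first by a wide margin. DN340 had 387, 331 and 343 TPM, a range that overlapped with that of DN3573 (TRINITY_DN3573_c0_g1), another l(2)efl match of 1475 bases, at 362, 384 and 342. DN120 had 259, 159 and 271 TPM. DN27543 had 149.8, 184 and 153 TPM, and its range overlapped with that of DN120. The order of the 4 genes thus stayed DN298, DN340, DN120, DN27543 by mean in both groups, with the last pair no longer separate after immersion.

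The summed TPM of the 11 bee genes overlapped between the groups, at 2861, 3108 and 2704 in the controls and 3205, 3075 and 3139 after immersion, while its make-up differed. DN298 held 33.9% to 36.7% of the sum in the controls and 49.2% to 51.6% after immersion. DN340 went the other way, with 20.1% to 29.2% in the controls and 10.8% to 12.1% after immersion. DN120 held 15.7% to 18.9% and then 5.17% to 8.63%, and DN27543 2.20% to 3.32% and then 4.67% to 5.98%. Within a library, DN298 was 1.26 to 1.75 times as abundant as DN340 in the controls and 4.07 to 4.79 times after immersion. The ratio of DN340 to DN120, the pair that was lower after immersion, was 1.26 to 1.55 in the controls and 1.27 to 2.09 after immersion, overlapping ranges. The shares restate the contrast that was known when the genes were chosen. Neither shares nor ratios were corrected for the trend with transcript length described next.

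**Figure D2:**
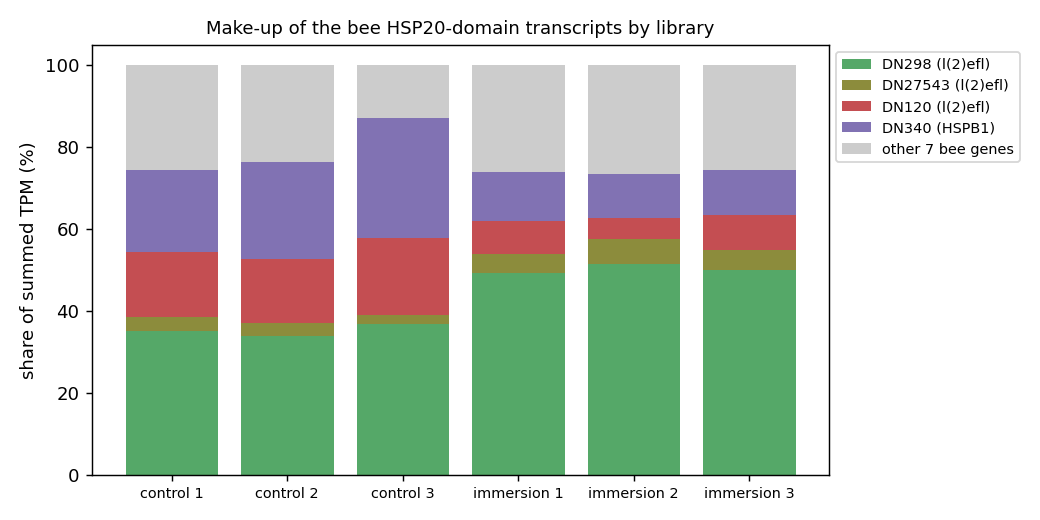
Share of the summed TPM of the 11 bee HSP20-domain genes (vertical axis, %) held by each of the 4 genes and by the other 7 together, in each library (horizontal axis). DN298 fills 33.9% to 36.7% of the control bars and 49.2% to 51.6% of the immersion bars, and DN340 and DN120 fill less after immersion. The shares were not corrected for the trend with transcript length.

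The split by direction coincided with a split by transcript length. The pair higher after immersion had 998 and 1145 bases, and the pair lower had 7614 and 12657. Across all fitted Hymenoptera genes the log2 difference also ran with length. Its median was 0.42 in 2191 genes of up to 1500 bases, 0.28 in 3214 genes of 1501 to 3000 bases, -0.26 in 3191 genes of 3001 to 7000 bases and -0.69 in 654 genes of over 7000 bases. In that last class 4.59% of genes had a positive difference. The trend was steepest in control 3, where genes of up to 1500 bases had a median deviation of -0.55 from their mean over the 6 libraries on the log2 scale and genes of over 7000 bases one of 0.74. Control 2 had -0.09 and 0.31 in these classes, and control 1 was nearly flat, at 0.05 and -0.09. The immersion libraries went the other way from control 3, with 0.14 to 0.31 in the shortest class and -0.43 to -0.24 in the longest.

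**Figure D3:**
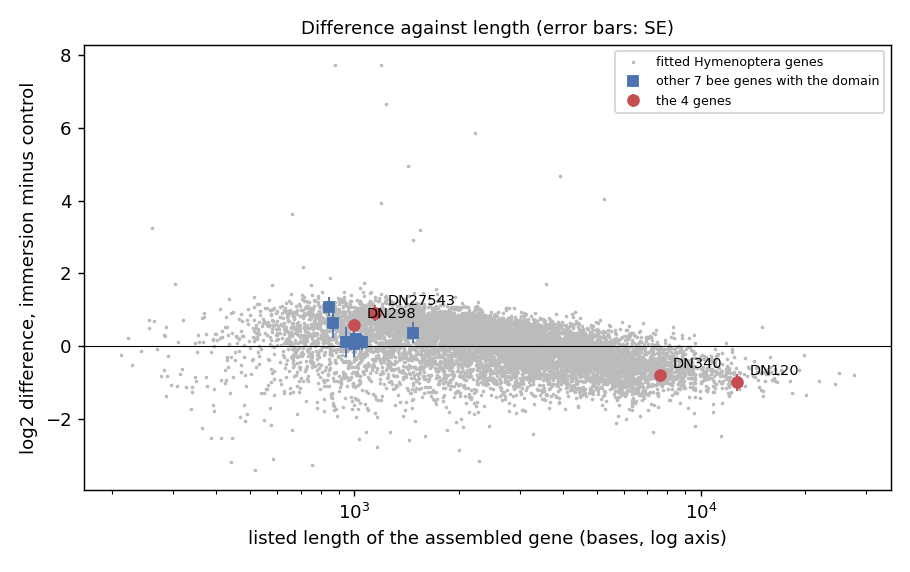
Log2 difference between immersion and control (vertical axis) against the listed length of the assembled gene (horizontal log axis, bases) for fitted Hymenoptera genes in grey, the other 7 genes with the domain as squares and the 4 genes as circles with SE. Long genes as a class lie below 0 (median -0.69 over 7000 bases), and DN340 and DN120 lie among them at -0.80 and -1.00.

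With a smooth trend on listed length removed from each library, the log2 difference of DN298 was 0.14 ± 0.20 (SE), that of DN120 -0.31 ± 0.25 and that of DN340 -0.22 ± 0.13. DN27543 stood at 0.54 ± 0.13. Values corrected in this way overlapped between the groups for DN298, with 460 to 788 in the controls and 662 to 663 after immersion, and for DN120, with 2660 to 4941 and 2445 to 3214. They did not overlap for DN27543, at 54.96 to 64.78 and 78.68 to 97.04, nor for DN340, at 1005 to 1216 and 917 to 997. After the correction 24.2% of the 9250 genes were still higher and 17.6% lower without overlap. The origin of the length trend was not tested.

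Listed length is a poor guide for DN340. The ratio of estimated count to TPM gives the effective length, the part of a transcript that fragments can start from, weighted by the transcripts in use. Scaled on single-transcript genes of over 3000 bases, it came to 2603 to 2705 bases in the controls and 2864 to 3040 after immersion for DN340, well under its listed 7614. For DN120 it came to 12586 to 13301 bases, on either side of the listed 12657, since the scaling takes listed length as the unit. DN298 had 619 bases in control 1, 705 and 715 in controls 2 and 3, and 618 to 640 after immersion. DN27543 had 784 in control 1, 865 and 874 in controls 2 and 3, and 783 to 804 after immersion. In these single transcripts control 1 thus stood with the immersion libraries, and the cause was not tested. A trend on effective length, an alternative chosen after seeing the data, left DN340 at -0.70 ± 0.14 (SE), near its uncorrected value. It gave DN120 -0.20 ± 0.29, DN298 0.16 ± 0.20 and DN27543 0.56 ± 0.14. Every one of the 4 differences was smaller in size under both corrections than without one, by the least for DN340 on effective length.

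**Figure D4:**
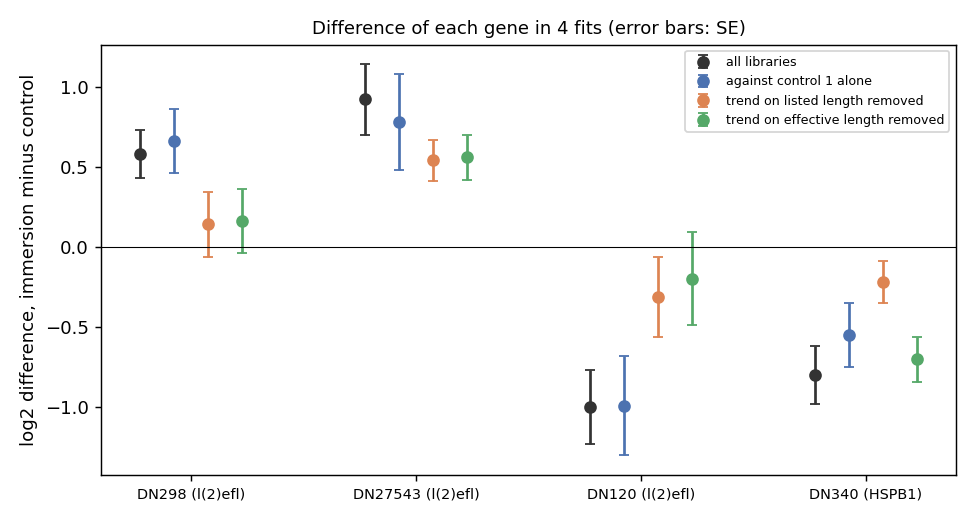
Log2 difference with SE (vertical axis) of each of the 4 genes from 4 fits: all libraries, against control 1 alone, and with a trend on listed or effective length removed. With either length correction DN298 and DN120 lie nearer 0 than in the fit of all libraries (0.16 and -0.20 on effective length), as does DN27543 (0.54 and 0.56 against 0.92), and DN340 lies at -0.22 or -0.70.

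The other 7 bee genes with the domain all match l(2)efl and lay between 8.39 and 384 TPM. All 7 had positive log2 differences, with a median of 0.20. Among the 2191 fitted genes of up to 1500 bases, their length class, 70.2% were positive, with a median of 0.42. With the trend on listed length removed 3 were positive and 4 negative, with a median of -0.19, and against control 1 alone DN3573 (TRINITY_DN3573_c0_g1) was at -0.04. Of the 7, 0 passed edgeR's test at an adjusted p of 0.05, as did 0.0% of the 9250 Hymenoptera genes. At an unadjusted p under 0.05 there was 1 of 7, against 34.8% of the 9250 genes. DESeq2 called 1, which was higher, against 22.1% of the 9250 genes, 7.21% as higher, and limma-voom called 0 (0.0%). That gene was DN27112 (TRINITY_DN27112_c0_g1), a single transcript of 847 bases. It had 28.0, 31.3 and 15.5 normalised CPM in the controls and 50.5, 56.7 and 51.1 after immersion, with no overlap. Its log2 difference was 1.08 ± 0.26 (adjusted p = 0.0907 in edgeR's test). It was 0.75 ± 0.15 with the trend on listed length removed and 0.92 against control 1 alone. Like DN27543, it was low in control 3.

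DN3573, the most abundant of the 7, averaged 166 ± 59.9 normalised CPM over the controls and 214 ± 20.7 over the immersion libraries, with overlap (SD, n = 3 each; log2 difference 0.37 ± 0.28, adjusted p = 0.339 in edgeR's test). DN4252 (TRINITY_DN4252_c0_g1) did not overlap, with 28.2 ± 4.05 and 32.4 ± 1.42 normalised CPM, and its log2 difference was 0.20 ± 0.17 (adjusted p = 0.392 in edgeR's test). Corrected for listed length, its log2 difference was -0.19. DN5995 (TRINITY_DN5995_c1_g1) and DN3597 (TRINITY_DN3597_c0_g1) had differences of 0.10 ± 0.20 and 0.05 ± 0.35. Without control 1 edgeR called 2 of the 7, DN27112 and DN298_c0_g2 (TRINITY_DN298_c0_g2), both higher, where it called 52.3% of 9396 fitted genes, 25.7% as higher. A further gene described as heat shock protein 67B2 (TRINITY_DN6324_c0_g1) carries a rhodanese domain in the table and no HSP20 domain, and averaged 11.2 ± 6.58 and 22.1 ± 3.24 normalised CPM (log2 difference 0.98 ± 0.42, adjusted p = 0.145 in edgeR's test).

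A pair of these genes share an assembly cluster with a member, so reads may be divided between them. TRINITY_DN120_c1_g1, a transcript of 943 bases, has the same entry in the domain column as DN120, the only entry shared among the 11 genes. It had 133, 216 and 58.9 TPM in the controls and 165, 127 and 168 after immersion, which overlapped, and its log2 difference in normalised CPM was 0.11 ± 0.40 (adjusted p = 0.839 in edgeR's test). Added together, both DN120 genes had 588, 703 and 569.5 TPM in the controls and 424, 286 and 439 after immersion, still without overlap. DN298_c0_g2 had 38.62, 24.19 and 10.96 TPM in the controls and 35.75, 45.01 and 36.31 after immersion. Its sum with DN298 was 1043, 1077 and 1004 TPM, then 1612, 1631 and 1605.

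Small heat shock proteins of other species were present too. The table held 5 Caenorhabditis genes with the domain and 8 mammalian genes with the domain or a small heat shock protein name. All 13 of these foreign genes had TPM of 0 in controls 2 and 3 and above 0 in the other libraries. The worm genes summed to 79.9 TPM in control 1 and 233 to 263 TPM after immersion, of which stress-induced protein sip-1 held 59.9 and 188 to 208. This gene was named after its values were seen. The mammalian genes summed to 47.7 TPM in control 1 and 38.9 to 114 after immersion. The part of foreign transcripts in the values of the 4 bee genes was not tested.

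Genes with the most similar course over the 6 libraries were found by the root mean square (RMS) difference of centred log2 normalised CPM, as a description over libraries that fall into 2 groups. The nearest to DN298 were cyclin L1 (TRINITY_DN4340_c0_g1), which acts with splicing kinases, at an RMS of 0.059, the splicing factor Prp38 (TRINITY_DN3052_c0_g1) at 0.069 and the kinesin ncd (TRINITY_DN8160_c0_g1) at 0.074, of 1753, 1690 and 3124 bases against the 998 of DN298. The nearest to DN27543 were a UMP-CMP kinase (TRINITY_DN361_c0_g1), an enzyme of nucleotide synthesis, at 0.076, canopy homolog 3 (TRINITY_DN599_c0_g1) at 0.081 and an uncharacterised gene at 0.089. They had 1020 to 1472 bases.

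For DN340 the nearest were syndecan (TRINITY_DN7088_c0_g2), a cell surface proteoglycan, at an RMS of 0.030, a hypothetical protein at 0.038 and a receptor tyrosine phosphatase (TRINITY_DN2217_c0_g1) at 0.041, of 5848, 7215 and 9446 bases. DN120 had no neighbour as close. A gene described as tropomyosin (TRINITY_DN5199_c0_g2), a thin-filament protein of muscle, lay at 0.106, and Cyp4g15 (TRINITY_DN2486_c0_g3), a cytochrome P450, and glycogen phosphorylase (TRINITY_DN1570_c0_g1), which releases sugar from glycogen, both at 0.139, of 2281, 2072 and 3634 bases against the 12657 of DN120. DN120 and DN340 differed from each other by an RMS of 0.251. DN120 ranked 1641 among the genes nearest to DN340, and DN340 ranked 153 among those nearest to DN120. DN298 and DN27543 differed by 0.30. DN298 ranked 1472 among the genes nearest to DN27543, and DN27543 ranked 2141 among those nearest to DN298.

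Heat shock factor, the larger chaperones of several cell compartments and their partners had 0 calls in edgeR's test. Of 48 bee genes for heat shock factor, the Hsp70, Hsp110, Hsp90 and Hsp60 systems, J-domain proteins and Hsp70 regulators, 43 were fitted. In edgeR's test 0 of 43 passed (background 0.0%). At an unadjusted p under 0.05, 5 were higher and 3 were lower, against 14.2% and 20.6% of the 9250 genes, and limma-voom called 0. DESeq2 called 3 of the 43, where it called 22.1% of the 9250 genes, 7.21% as higher and 14.9% as lower. The 3 were Samui and DNAJB6, both lower, and the J-domain gene DNAJC17 (TRINITY_DN2289_c0_g1), which was higher. The median log2 difference was 0.13, with 27 positive and 16 negative, and 0.02 over the 9250 genes. Without control 1 edgeR called 16 of the 43, 13 higher and 3 lower, where it called 52.3% of 9396 fitted Hymenoptera genes, 25.7% higher and 26.6% lower. Without control 1 the groups also differ in foreign transcripts, which are at trace level in controls 2 and 3.

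Heat shock factor (TRINITY_DN1123_c0_g1), the transcription factor that switches on heat shock genes, averaged 103 ± 7.28 normalised CPM over the controls and 102 ± 6.79 over the immersion libraries (SD, n = 3 each; log2 difference -0.01 ± 0.14, adjusted p = 0.942 in edgeR's test). This gene has 7348 bases, and its difference depended on the correction. It was 0.50 ± 0.21 with the trend on listed length removed and 0.09 ± 0.12 on effective length. Hsc70-4 (TRINITY_DN294_c0_g1), the constitutive cytosolic Hsp70, had 10170 ± 2260 and 8249 ± 276.5 normalised CPM, and the endoplasmic reticulum Hsp70 BiP (TRINITY_DN1619_c0_g1) 576 ± 168 and 490.0 ± 67.3. Another gene matching Hsc70-4 (TRINITY_DN371_c0_g1) had a log2 difference of -0.06, against -0.30 for TRINITY_DN294_c0_g1. All 4 fitted Hsp70 genes had negative differences, with a median of -0.25, but 1 was positive under upper-quartile scaling or with the length trend removed and 2 were positive against control 1 alone (median 0.04). The Hsp110 gene (TRINITY_DN129_c0_g1), an exchange factor for Hsp70, had 281 ± 36.7 and 258 ± 5.42. Its log2 difference was -0.12 ± 0.16, but 0.24 ± 0.12 with the trend on listed length removed and 0.32 ± 0.13 on effective length.

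Of the 8 fitted genes of Hsp90 and its cochaperones 7 had positive differences, with a median of 0.36 and 4 without overlap. Without overlap, 24.0% of the 9250 genes were higher. Across the other scalings and length corrections 6 to 8 of the 8 Hsp90 genes were positive. A gene matching Hsp83 (TRINITY_DN9337_c0_g1), the insect cytosolic Hsp90, had 733 ± 48.2 and 992 ± 116 normalised CPM (log2 difference 0.44 ± 0.17, adjusted p = 0.126 in edgeR's test). Another gene matching Hsp83 (TRINITY_DN1205_c0_g1) had a log2 difference of -0.08, the only negative one of the 8. Endoplasmin (TRINITY_DN1581_c0_g1), the Hsp90 of the endoplasmic reticulum, had 287 ± 72.2 and 320 ± 26.6. Among 22 J-domain genes, which deliver clients to Hsp70, 16 were positive with a median of 0.15, and 16 to 18 were under those alternatives (13 against control 1 alone). DNAJB6 (TRINITY_DN358_c1_g1) averaged 343 ± 33.1 and 254 ± 14.3 normalised CPM (adjusted p = 0.114 in edgeR's test), and DNAJA1 (TRINITY_DN2351_c0_g1) 436 ± 111 and 477 ± 31.5. Another gene matching DNAJA1 (TRINITY_DN228_c0_g1) had a log2 difference of 0.41, against 0.13 for TRINITY_DN2351_c0_g1.

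Among 5 Hsp70 regulators 3 had positive differences and 2 negative ones, with a median of 0.53 (0.10 against control 1 alone). Without overlap 3 were higher and 1 was lower, against 24.0% and 22.2% of the 9250 genes. The 2 most abundant, described here, were the negative ones. The BAG-domain gene Samui (TRINITY_DN212_c0_g1) averaged 297 ± 103 normalised CPM in control libraries and 174 ± 15.1 in immersed ones. Its 7256 bases place it with the long genes, and its log2 difference of -0.77 ± 0.26 (adjusted p = 0.109 in edgeR's test) was -0.17 with the length trend removed. Hip (TRINITY_DN573_c0_g1), a cochaperone that stabilises Hsp70 on its client, had 116 ± 7.39 and 110.5 ± 2.60. The mitochondrial folding chamber Hsp60 (TRINITY_DN7866_c0_g1) had 441 ± 162 and 412 ± 19.9, and its lid Hsp10 (TRINITY_DN9887_c0_g3) 47.5 ± 19.2 and 79.2 ± 13.3 (adjusted p = 0.149 in edgeR's test).

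**Figure D5:**
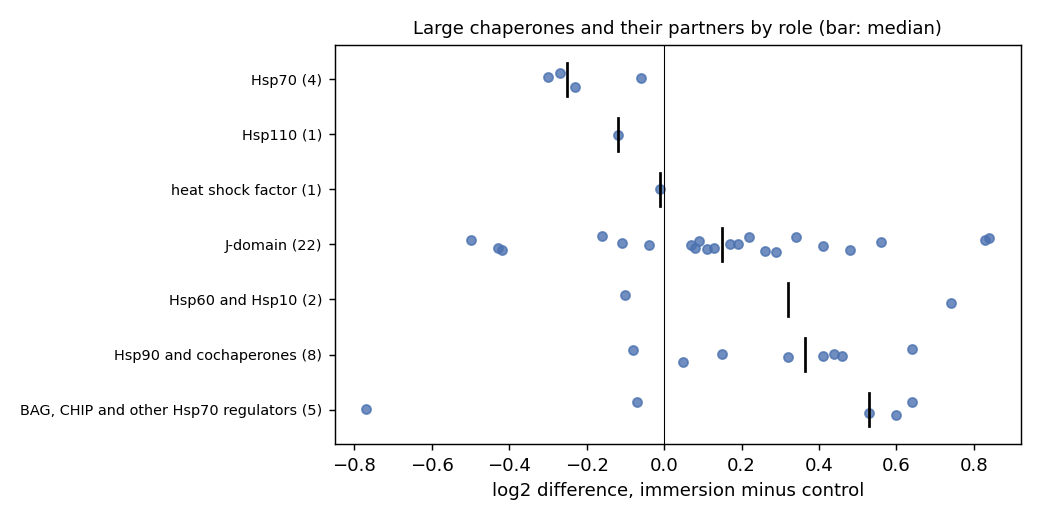
Log2 difference between immersion and control (horizontal axis) of the 43 fitted genes of the larger chaperones and their regulators, by role with the number of genes in brackets; bars are medians. In this fit Hsp70 genes lie below 0 (median -0.25; 2 of 4 were positive against control 1 alone) and 7 of 8 Hsp90 genes above (median 0.36), and 0 of the 43 passed edgeR's test.

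Because l(2)efl carries gene ontology terms of the muscle Z disc, muscle markers were set beside these results. Of 21 muscle marker genes (myosin heavy and light chains, tropomyosins, troponins and paramyosin) 19 were fitted, with 14 negative and 5 positive and a median log2 difference of -0.52 (13 to 15 negative under other scalings and length corrections). Their summed level was 37000 to 41160 normalised CPM in the controls and 25270 to 40590 after immersion, so the groups overlapped. Immersion library 2 was lowest in muscle markers, as it was in DN120. Immersion library 3 went the other way, with 40590 in muscle markers, above controls 1 and 2 at 37000 and 38270. Its DN120 level of 2662 normalised CPM was below every control (4338 to 4808). All 9 fat body markers (vitellogenins, hexamerins and apolipophorins) were fitted, and 6 were negative (6 to 8 under the same alternatives). They summed to 19870 in control 1, 35540 in control 2, 80340 in control 3 and 10290 to 12440 after immersion. No marker was at 0 in any library (0 of either list), and 0 of either list passed edgeR's test, with 9 muscle and 5 fat body genes at an unadjusted p under 0.05, all lower, against 20.6% of the 9250 genes. DESeq2 called 7 and 5 of them, all lower, against 14.9% of the 9250 genes. The part of muscle or fat body content in the values of the 4 genes was not tested.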

How the data were processed

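Per the labels' protocols, total RNA was extracted with TRIzol and 1 ug was made into libraries with oligo(dT) Dynabeads. Per the submitters' processing notes, the tools were cutadapt 1.9, Salmon and edgeR, with roles unstated. The gene identifiers carry the prefix TRINITY, the name of an assembler, but the sources used here do not describe the assembly. They do not give annotation thresholds or strand setting either. For each assembled gene the authors deposited estimated counts and TPM values, without genome coordinates. The authors' assembly may divide reads of paralogs or antisense partners, which makes values of individual genes in this family uncertain.

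Estimated counts were rounded and fitted in R 4.3.3 with edgeR 4.0.16 (filterByExpr, TMM, estimateDisp, glmQLFit, glmQLFTest; 3 libraries against 3, two-sided, Benjamini-Hochberg over all fitted genes, threshold 0.05). The fit covered genes whose description names a Hymenoptera genus (11315 genes, 9250 after the filter). The code of the fit was tested on simulated counts with the same dispersion for all genes, no length trend and no foreign transcripts. That simulation does not show how the fit behaves on these libraries. Alternatives were DESeq2 1.42.0, limma-voom (limma 3.58.1), other scalings and filters, every gene of the table, the replicate number as a block, loess trends on length (span 0.3) removed as offsets, a term for libraries with over 100 CPM of worm counts, libraries left out in turn, and log2(TPM + 1) or log2(TPM + 0.1). Effective length used genes with over 500 counts. The profiles compared between genes were log2(normalised CPM + 0.5).

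The rule for named genes took the 4 members, other genes named as small heat shock proteins, the 2 most abundant genes of each chaperone role and the 3 nearest profiles of each member. Further genes matching Hsp83, Hsc70-4 and DNAJA1 were named after their values were seen. An integrator subunit with a stray cochaperone match and non-muscle myosins were left out of the lists. The members and lists were chosen with earlier results of these data known.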

Additional observations from a re-analysis of the deposited data

How the results depend on the processing

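The 4 genes kept the sign of their log2 difference under all 19 alternatives run for each. Removal of the trend on listed length moved DN27543 to 0.54, DN298 to 0.14, DN120 to -0.31 and DN340 to -0.22, and removal of the trend on effective length moved the first 3 to 0.56, 0.16 and -0.20. Upper-quartile scaling gave DN298 0.68. The term for libraries with worm counts gave DN298 0.66 and DN340 -0.55, and deposited TPM gave DN340 -0.98 with either pseudocount. These values moved by more than the spread between replicates. Leaving out 1 library gave 0.54 to 0.62 for DN298, 0.74 to 1.05 for DN27543, -1.11 to -0.81 for DN120 and -0.90 to -0.69 for DN340. Of the chaperone list, 0 genes were called by edgeR, 3 by DESeq2, 8 at an unadjusted p, and 0 to 16 with 1 library left out, 16 without control 1. Of the Hymenoptera genes, 0 were called by edgeR, 2042 by DESeq2, 3222 at an unadjusted p, 28 and 18 with the trend on listed and effective length removed, and 1 with the worm term. With 1 library left out the count was 0 to 4912, the latter without control 1, and 362 without control 3. The cause of these shifts was not tested.

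Same-numbered libraries deviated together with r of -0.179, 0.164 and 0.184 across genes, and not every library correlated best with its own number, so the numbers were not taken as pairs. With the replicate number as a block the differences were 0.58, 0.94, -1.02 and -0.79 for DN298, DN27543, DN120 and DN340, and 0 genes were called in the list or among Hymenoptera genes. With 3 libraries a group and single members of a multigene family, small differences could not be resolved. Differences of several SE could also fail edgeR's test, as for DN27112 at 1.08 ± 0.26 (adjusted p = 0.0907 in edgeR's test).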
